A study of Mus musculus with 4 samples.

Results

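The genes described here are the semaphorins, plexins, neuropilins, ephrins and Eph receptors of the mouse, a set of guidance ligands and receptors, as they were transcribed in smooth muscle cells of the proximal aorta. They were chosen by symbol alone: all class 3 to class 7 semaphorins, all plexins, Nrp1 and Nrp2, and all ephrin-A, ephrin-B, EphA and EphB genes listed, which gave 53 of 32287 features. These are 20 semaphorins, 9 plexins, 2 neuropilins, 9 EphA receptors, 5 EphB receptors, 5 ephrin-A ligands and 3 ephrin-B ligands. RNA of single cells was counted in 4 libraries, made from mice 12 weeks old that carry Wnt1-Cre2 and the mT/mG reporter. In such mice, cells in which Cre has acted, and their descendants, turn from tdTomato to eGFP. The Wnt1-Cre2 driver is active in the neural crest, so that eGFP marks cells of neural crest descent and tdTomato all others. Cells positive for the integrin ITGA8, a surface protein of smooth muscle, were sorted from the aortic root (Root, with no colour in its title), from the ascending aorta by colour (Asc-GFP and Asc-RFP) and from the aortic arch (Arch-GFP). No group is an untreated or drug-treated arm, and all groups share the driver, the reporter, the age and the sort. The sources used here do not give how many animals there were or whether they were pooled. By their sex-linked RNA, each library held both female and male cells, and so cells of different animals.

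Semaphorins are secreted or membrane-bound cues that steer growing axons and migrating cells. The secreted class 3 proteins bind a neuropilin that carries no signal of its own and act through a plexin, while most other semaphorins bind plexins directly. Ephrins are held on the cell surface, by a lipid anchor in the A class and by a membrane span in the B class, and signal to Eph receptor tyrosine kinases on neighbouring cells. In the developing heart, Sema3c and its receptors are known for guiding neural crest cells into the outflow tract, and ephrin-B2 with EphB4 for setting arteries apart from veins.

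Each group was 1 library, so nothing here has a replicate check and no p-value was computed. The intervals printed in brackets are at 95% and cover only the error of counting. The quality filter kept 8031 Arch-GFP, 6408 Asc-GFP, 4030 Asc-RFP and 2960 Root cells, with 39691658 to 100987052 UMIs (counted RNA molecules) in a library and median UMIs per cell of 12628 to 13605. Root cells were divided by their own reporter UMIs into 576 Root eGFP cells (at least 8 eGFP and at most 1 tdTomato UMI) and 1832 Root tdTomato cells (at least 2 tdTomato and under 8 eGFP UMIs), and 552 cells fell in neither. Of the Root cells, 16.7% lay near the tdTomato limit and 1.72% near the eGFP limit. Pairs of libraries shared 4 to 18 cell barcodes. The 12 smooth muscle markers were all detected in the 5 populations, and their summed level was 53119 to 61042 CPM (UMIs of a gene per 1000000 UMIs of the population). The share of female cells among cells that could be sexed was 88.2% in Root eGFP, 87.0% in Root tdTomato, 29.1% in Arch-GFP, and 70.1% and 54.4% in Asc-GFP and Asc-RFP, so the libraries also differed in their mix of sexes. Segment, library and animal cannot be told apart in any comparison of segments. In the ascending aorta colour and library cannot be told apart either, since Asc-GFP and Asc-RFP are separate libraries. Only the colours of the root come from 1 library.

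Of the 53 genes, 49 had at least 1 UMI in the kept cells. Epha6, Epha8, Plxnb3 and Sema4f had none. Only 12 reached 20 CPM in any population, another 13 lay between 5 and 20 CPM at their highest, and 24 stayed under 5 CPM. Summed by family, the 20 semaphorins stood at 280 CPM (269 to 293) in Root eGFP cells and 257 CPM (251 to 264) in Root tdTomato cells, at 354 CPM (350 to 358) in Asc-GFP cells and 294 CPM (290 to 299) in Asc-RFP cells, and at 410 CPM (406 to 414) in Arch-GFP cells. The 14 Eph receptors summed to 43.8 to 57.2 CPM in the root and ascending populations and to 67.4 CPM (65.8 to 69.0) in Arch-GFP. Epha3 alone gave 22.4 CPM of the Arch-GFP sum, and 1.24 to 2.74 CPM in the root and ascending populations. The 9 plexins varied less, from 92.2 CPM in Root eGFP to 108 CPM in Root tdTomato, and the 8 ephrins summed to 122 to 153 CPM. The 2 neuropilins went from 30.4 CPM in Root eGFP to 53.6 CPM in Root tdTomato. Over all cells that is wider for their level than the span of the 20 semaphorins. In muscle clusters alone, which leave out cells of other types, it was not. The neuropilins were there at 29.2 CPM in Asc-RFP to 38.4 CPM in Arch-GFP, and the semaphorins at 255 to 410 CPM. In CPM, the family sums thus differed most for the ligands of the semaphorin family, and within it the 7 class 3 genes went from 145 CPM in Root tdTomato to 311 CPM in Arch-GFP. In the plot of levels by population, the genes whose symbols lie far apart on their line are Sema3c, Sema3d, Epha3, Nrp2, Plxna2, Plxna4 and Epha7.

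**Figure D1:**
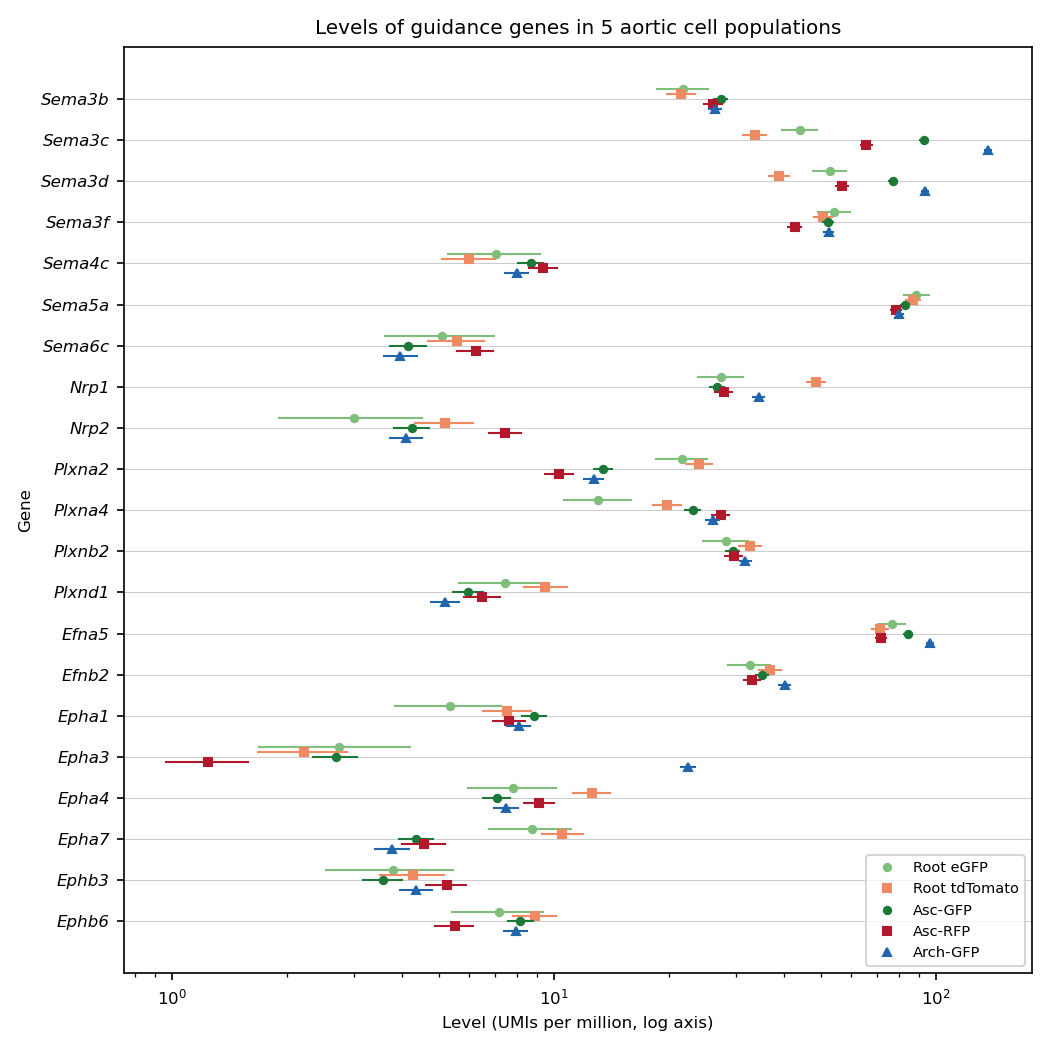
Levels of 21 guidance genes (vertical axis) in CPM on a log axis, in Root eGFP, Root tdTomato, Asc-GFP, Asc-RFP and Arch-GFP cells, 1 library a group; points are pooled counts and lines exact 95% Poisson intervals for counting error only. Sema3c runs from 33.5 in Root tdTomato to 137 in Arch-GFP, and Epha3 stands apart in Arch-GFP at 22.4.

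Sema3c and Sema3d, both secreted class 3 semaphorins, had the same order of levels over the 5 populations, lowest in Root tdTomato and highest in Arch-GFP. Sema3c (ENSMUSG00000028780) was at 33.5 CPM (31.3 to 35.8) in Root tdTomato, 43.9 CPM (39.4 to 48.9) in Root eGFP, 65.7 CPM (63.6 to 67.9) in Asc-RFP, 93.1 CPM (91.0 to 95.1) in Asc-GFP and 137 CPM (134 to 139) in Arch-GFP. Sema3d (ENSMUSG00000040254) was at 38.8 CPM (36.5 to 41.3), 52.7 CPM (47.7 to 58.1), 56.7 CPM (54.7 to 58.8), 77.2 CPM (75.4 to 79.1) and 93.6 CPM (91.7 to 95.5) in the same order. No intervals overlapped for Sema3c, and for Sema3d only those of Root eGFP and Asc-RFP did. From root to ascending aorta Sema3c was higher by a log2 ratio of 1.08 (0.93 to 1.24) in the eGFP cells and 0.97 (0.87 to 1.08) in the tdTomato cells, and Sema3d by 0.55 (0.41 to 0.70) and 0.55 (0.44 to 0.65). The intervals of the 2 colours overlapped for both genes, and whether the steps differ was not tested. In male cells alone, of which Root eGFP had 64, they were 3.05 and 1.17 for Sema3c and 2.91 and 1.0 for Sema3d. Between colours within a segment, eGFP over tdTomato, the ratios of Sema3c were 0.50 (0.44 to 0.56) in the ascending aorta and 0.39 (0.21 to 0.58) in the root, and those of Sema3d were 0.45 (0.38 to 0.51) and 0.44 (0.27 to 0.61). These lie at or just under the size of 0.5 that was needed for a gene to count as higher or lower. Sema3c in Asc-GFP over Asc-RFP passed it by little, and the call ended at 0.49 in muscle clusters alone or with either other scaling, at 0.47 as a mean over cells and at 0.39 in female cells. For Sema3d, the call of Asc-GFP over Root eGFP ended at 0.43 in female cells and at 0.41 under a stricter cell filter. The summed level of 5 pericyte markers moved the same way, from 119 CPM in Root tdTomato and 138 CPM in Root eGFP to 224 CPM in Asc-RFP, 272 CPM in Asc-GFP cells and 534 CPM in Arch-GFP, with 4 or 5 of the 5 detected in each, and its part in the Sema3c and Sema3d levels was not tested.

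On mm10 the pair lies on chromosome 5, Sema3d at chr5:12383385-12588948 and Sema3c at chr5:17574281-17730268, both on the plus strand. Of the 53 genes, only Sema3a and Sema3e lie between them, and genes outside the 53 were not looked at there. Sema3a begins 0.536 Mb beyond the end of Sema3d and Sema3e ends 3.32 Mb before Sema3c. Both were low: Sema3a was at 0 to 1.53 CPM and Sema3e at 0.117 to 0.723 CPM over the 5 populations. The 250 bases before the RefSeq start of Sema3d (build GRCm38.p6, chr5:12382916-12383165, plus strand) are shown because its levels had the same order as those of Sema3c. Capitals mark the 3 matches of this window to the E-box letters CANNTG, at 210, 191 and 171 bases before the start.
Sema3d: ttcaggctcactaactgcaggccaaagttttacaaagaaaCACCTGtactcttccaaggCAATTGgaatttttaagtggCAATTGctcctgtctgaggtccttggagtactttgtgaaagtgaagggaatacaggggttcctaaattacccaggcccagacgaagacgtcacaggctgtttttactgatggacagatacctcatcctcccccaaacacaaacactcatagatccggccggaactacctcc
The window of Sema3c, at chr5:17574566-17574815, overlaps an exon and is shown only around its match to the AP-2 letters GCCNNNGGC (capitals), at chr5:17574712-17574736, 96 bases before the start.
Sema3c: gagcgctcGCCCCCGGCgcccggcc
Each motif was searched on both strands. The E-box letters occur in 66.2% and the AP-2 letters in 13.7% of the 32851 promoter windows of the same length in the table, and the Sema3d window holds no AP-2 match. Sema3c also has 2 E-box and 3 GC box (GGGCGG) matches. A match is a description of letters and not a binding site.

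The higher level of Sema3c in Arch-GFP than in Asc-GFP (log2 ratio 0.55, 0.51 to 0.59) was unevenly spread over the arch cells. Clustering of all cells gave 9 clusters, among them cluster 5, with 1156 cells of which 1139 were Arch-GFP cells and 17 Asc-GFP cells, led by Adamtsl1, Prss12, Hhip, Mdga2, Negr1 and Dlx6. In the Arch-GFP cells of cluster 5, Sema3c was at 344 CPM (335 to 354), whereas the other clusters with 100 or more Arch-GFP cells were at 77.7 to 111 CPM and those of Asc-GFP at 70.3 to 104 CPM. Smaller steps lay within shared clusters: Arch-GFP was above Asc-GFP without overlap in cluster 0 (97.5 and 85.0 CPM), cluster 1 (111 and 100 CPM) and cluster 4 (97.6 and 70.3 CPM), but not in cluster 3 (77.7 and 80.6 CPM). Sex and depth enter these clusters. Xist was a leading gene of cluster 1, and Eif2s3y, which lies on the Y chromosome, was one of cluster 0. Cluster 4 was shallow, with a median of 4880 UMIs per cell. The parts of sex and depth in the steps within clusters were not tested. Sema3d stood at 187 CPM (180 to 194) in cluster 5 and at 56.7 to 83.3 CPM in the other arch clusters. Without cluster 5, a setting chosen after the data were seen, the log2 ratio of Arch-GFP over Asc-GFP fell to 0.11 for Sema3c and to 0.01 for Sema3d. The ephrin-A5 gene Efna5 (0.19 to -0.01) and Nrp1 (0.36 to 0.02) did likewise, at 171 CPM (164 to 177) and 75.9 CPM (71.6 to 80.5) in cluster 5. Sema3c and Nrp1 were among the 2000 variable genes from which the clusters were made, while Sema3d, Efna5 and Epha3 were not, so the cluster values are descriptions. A cluster filled almost wholly by 1 library may be a trait of that library.

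**Figure D2:**
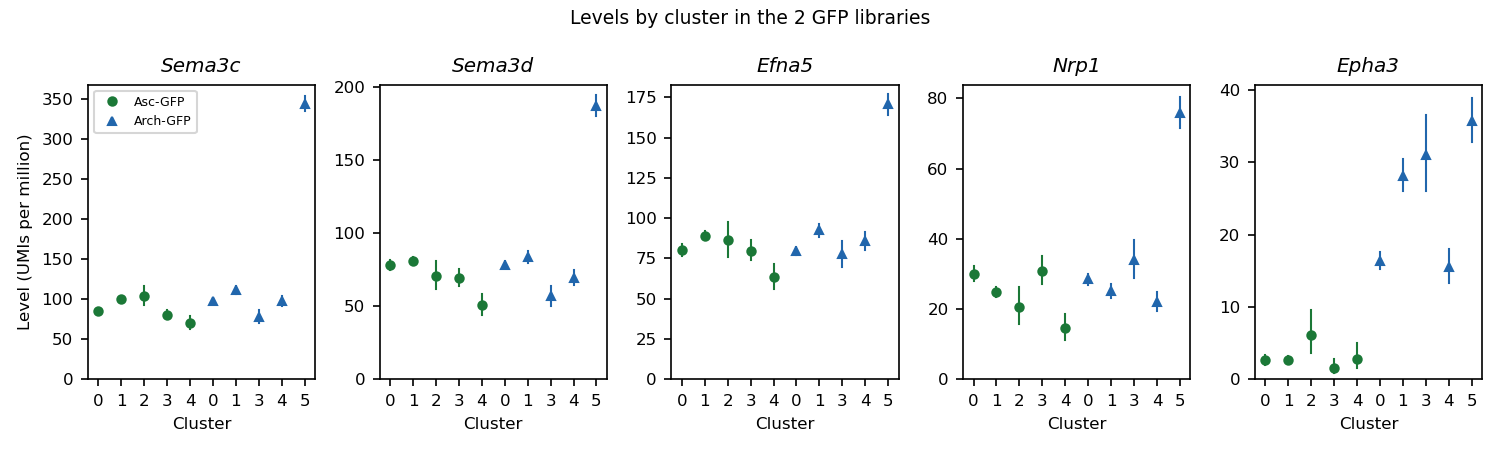
Levels of Sema3c, Sema3d, Efna5, Nrp1 and Epha3 in CPM by cluster (horizontal axis) within Asc-GFP (circles) and Arch-GFP (triangles), for clusters with at least 100 cells of the library; lines are exact 95% Poisson intervals. Cluster 5 is at 344 for Sema3c and stands above all other clusters for the 4 genes on the left, while Epha3 is higher in all 5 arch clusters than in any Asc-GFP cluster.

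The cells were also divided, after the cluster values were seen, by UMIs of the homeobox genes Dlx5 and Dlx6, known for patterning neural crest of the pharyngeal arches. Dlx6 is among the leading genes of cluster 5, and the 4 genes read here were picked for their levels in that cluster. The division is therefore not independent of cluster 5 and is no separate check of it. In Arch-GFP, 1736 cells had a Dlx5 or Dlx6 UMI and 6295 had none, with median UMIs of 12320 and 12719. Sema3c was at 249 CPM (242 to 255) with and 104 CPM (101 to 106) without such a UMI, and Sema3d at 145 CPM (140 to 150) and 78.5 CPM (76.6 to 80.5). Nrp1 was at 56.8 CPM (53.8 to 60.0) and 27.8 CPM (26.6 to 29.0), and Efna5 at 140 CPM (135 to 145) and 83.8 CPM (81.7 to 85.8). All 4 genes were therefore higher in the cells with a Dlx UMI. In Asc-GFP only 250 cells had a Dlx5 or Dlx6 UMI, and there Sema3c was at 116 CPM (106 to 127) against 91.9 CPM (89.8 to 94.0) and Nrp1 at 46.9 CPM (40.5 to 54.0) against 25.7 CPM (24.6 to 26.8). Those 250 cells were deeper, with a median of 15502 UMIs against 12895, and the part of depth was not tested.

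Most muscle cells of the root and of the ascending aorta lay in different clusters, so the ligands were also compared within clusters. Cluster 3 held 1336 Root tdTomato and 351 Root eGFP cells, cluster 2 held 2994 Asc-RFP cells and cluster 1 held 3084 Asc-GFP cells. In cluster 3, which held 2031 Root, 547 Asc-GFP and 553 Asc-RFP cells, Sema3c was at 28.8 CPM (26.9 to 30.8) in Root cells, 58.9 CPM (53.8 to 64.3) in Asc-RFP cells and 80.6 CPM (74.6 to 87.0) in Asc-GFP cells. Sema3d was at 34.0 CPM (31.9 to 36.2), 55.4 CPM (50.5 to 60.7) and 69.4 CPM (63.8 to 75.4) in the same order. In cluster 2, the 510 Root cells were lower than Asc-RFP for Sema3c, at 51.4 CPM (46.1 to 57.2) against 66.1 CPM (63.6 to 68.6). For Sema3d the intervals of that cluster overlapped and Root was not lower, at 63.4 CPM (57.5 to 69.8) against 56.0 CPM (53.7 to 58.4). In cluster 1, which held 181 Root cells, 150 of them eGFP cells, Sema3c was at 64.2 CPM (54.3 to 75.4) in Root and at 100 CPM in both Asc-GFP and Asc-RFP. Sema3d was there at 75.0 CPM (64.2 to 87.0) in Root, within the intervals of Asc-RFP (73.2 CPM, 62.3 to 85.5) and close to Asc-GFP (80.9 CPM, 78.2 to 83.6). Root was thus the lower one for Sema3c in all 3 clusters, and for Sema3d without overlap in cluster 3 alone.

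Of the other 5 semaphorins named here, Sema5a, Sema3f and Sema3b had no call, and Sema4c and Sema6c had 1 each. Sema5a, a membrane-bound semaphorin with thrombospondin repeats, was at 78.6 to 88.8 CPM in all 5 populations, with log2 ratios of -0.14 to 0.07 over the 5 comparisons. Sema3f, a secreted ligand of Nrp2, was at 42.6 CPM (40.9 to 44.4) in Asc-RFP and at 50.7 to 54.1 CPM elsewhere, and Sema3b, another secreted ligand, was at 21.5 to 27.3 CPM. Sema4c, a membrane-bound ligand of Plxnb2, was at 5.99 CPM (5.08 to 7.01) in Root tdTomato, 7.04 CPM (5.29 to 9.19) in Root eGFP, 7.99 CPM (7.45 to 8.56) in Arch-GFP, 8.68 CPM (8.06 to 9.33) in Asc-GFP and 9.38 CPM (8.58 to 10.2) in Asc-RFP. Only its step in tdTomato cells from root to ascending aorta counted, at 0.65 (0.38 to 0.92), and at 0.36 in male cells alone it did not. Sema6c, a membrane-bound class 6 semaphorin, was at 5.08 CPM (3.62 to 6.95) in Root eGFP cells and 5.56 CPM (4.69 to 6.55) in Root tdTomato cells, at 4.15 CPM (3.73 to 4.61) in Asc-GFP cells and 6.23 CPM (5.58 to 6.93) in Asc-RFP cells, and at 3.96 CPM (3.58 to 4.37) in Arch-GFP cells. It was lower in Asc-GFP than in Asc-RFP by a log2 ratio of -0.59 (-0.81 to -0.37), while the 2 root populations overlapped (-0.13, -0.68 to 0.39).

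Among the plexins, the signalling receptors of semaphorins, Plxna2 was higher in the root and Plxna4 lower. Plxna2 (ENSMUSG00000026640, chr1:194618218-194816869, plus strand), known as a receptor on migrating cardiac neural crest cells, was at 21.6 CPM (18.5 to 25.2) in Root eGFP cells and 23.9 CPM (22.1 to 25.9) in Root tdTomato cells, at 13.4 CPM (12.7 to 14.2) in Asc-GFP cells and 10.3 CPM (9.48 to 11.2) in Asc-RFP cells, and at 12.7 CPM (12.0 to 13.4) in Arch-GFP cells. The 2 root populations overlapped each other and lay above the other 3. From root to ascending aorta the log2 ratio was -0.69 (-0.93 to -0.45) in eGFP and -1.21 (-1.38 to -1.05) in tdTomato cells, and -0.69 and -1.26 in muscle clusters alone. In female cells alone the ratio of the eGFP cells was -0.48, which ended that call. Within cluster 3, Plxna2 was at 25.8 CPM (24.0 to 27.7) in Root cells, 11.5 CPM (9.28 to 14.1) in Asc-GFP cells and 10.7 CPM (8.59 to 13.1) in Asc-RFP cells. Root was also higher than Asc-RFP in cluster 2, at 17.0 CPM (14.0 to 20.4) against 9.26 CPM (8.34 to 10.3). It overlapped the 233 Asc-GFP cells of that cluster (11.7 CPM, 8.18 to 16.3). In cluster 1 the 19.0 CPM (13.8 to 25.4) of Root overlapped both ascending libraries.

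Plxna4, a plexin that acts with Nrp1 in the response to Sema3a, was at 13.0 CPM (10.6 to 15.9) in Root eGFP cells and 19.7 CPM (18.1 to 21.5) in Root tdTomato cells, at 23.1 CPM (22.0 to 24.1) in Asc-GFP cells and 27.3 CPM (25.9 to 28.7) in Asc-RFP cells, and at 26.0 CPM (25.0 to 27.0) in Arch-GFP cells. It was the reverse of Plxna2 by segment: Asc-GFP was higher than Root eGFP by 0.82 (0.53 to 1.13), and Asc-RFP over Root tdTomato stood at 0.47 (0.32 to 0.61), just under the size needed, and at 0.53 in muscle clusters alone. By colour, Plxna4 was lower in Root eGFP than in Root tdTomato, at -0.60 (-0.92 to -0.29). The same ratio in the ascending aorta was -0.24 (-0.34 to -0.14), and whether the 2 ratios differ was not tested. Plxnb2, a receptor for class 4 semaphorins, was at 28.2 to 32.5 CPM with no call in any comparison. Plxna1 (7.43 to 10.8 CPM) and Plxnb1 (10.7 to 13.6 CPM) had no call either.

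Nrp1 and Nrp2 are the binding partners of class 3 semaphorins, and Plxnd1 is a plexin of endothelium that binds Sema3e. Over all cells, each was highest in 1 of the 2 tdTomato populations. Nrp1 was at 27.4 CPM (23.8 to 31.3) in Root eGFP cells and 48.4 CPM (45.8 to 51.2) in Root tdTomato cells, at 26.7 CPM (25.6 to 27.8) in Asc-GFP cells and 27.8 CPM (26.4 to 29.3) in Asc-RFP cells, and at 34.4 CPM (33.2 to 35.5) in Arch-GFP cells. Root tdTomato stood above the rest over all cells. Nrp2 was at 3.00 CPM (1.90 to 4.50), 5.17 CPM (4.33 to 6.13), 4.24 CPM (3.82 to 4.71), 7.45 CPM (6.74 to 8.21) and 4.10 CPM (3.71 to 4.51) in that order, with Asc-RFP highest. Plxnd1 was at 7.43 CPM (5.63 to 9.63), 9.49 CPM (8.33 to 10.8), 5.96 CPM (5.45 to 6.50), 6.49 CPM (5.82 to 7.20) and 5.19 CPM (4.75 to 5.65). In muscle clusters alone, Nrp1 was at 34.7 CPM in Root tdTomato and 34.3 CPM in Arch-GFP. Plxnd1 was there highest in Root eGFP, at 7.44 CPM against 6.58 CPM in Root tdTomato, while Nrp2 stayed highest in Asc-RFP, at 6.37 CPM. The 2 tdTomato populations held more cells of other types: endothelial-like cells were 1.97% of Root tdTomato, 0.372% of Asc-RFP, 0.0936% of Asc-GFP and 0.0872% of Arch-GFP cells and 0 of 576 in Root eGFP, which allows a share of up to 0.521% (3 cells of the total). Macrophage-like cells were 2.46% of Root tdTomato, 1.61% of Asc-RFP, 0.347% of Root eGFP and 0.0156% of Asc-GFP cells and 0 of 8031 in Arch-GFP, which allows up to 0.0374%. The summed level of 10 macrophage markers was 824 CPM in Root tdTomato, 203 CPM in Asc-RFP and 27.1 CPM in Root eGFP, against 6.87 and 3.59 CPM in Asc-GFP and Arch-GFP, and that of 10 endothelial markers was 113, 62.3, 30.2, 55.8 and 58.1 CPM in the same order. No marker of either list was at 0 in all populations.

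In the cells of those types the genes were far higher. Nrp1 was at 554 CPM (502 to 610) in the 84 endothelial-like and 313 CPM (285 to 344) in the 165 macrophage-like cells of the 4 libraries. Nrp2 was at 36.3 CPM (23.9 to 52.8) and 80.4 CPM (66.1 to 96.8), and Plxnd1 at 80.7 CPM (61.6 to 104) and 81.8 CPM (67.4 to 98.4). With muscle clusters alone, Root eGFP over Root tdTomato moved from -0.82 (-1.04 to -0.61) to -0.34 for Nrp1 and from -0.79 (-1.49 to -0.14) to -0.12 for Nrp2, so both calls were lost. Asc-RFP over Root tdTomato moved from -0.55 (-0.79 to -0.31) to -0.27 for Plxnd1, and that call was lost. Others held: in muscle clusters alone Nrp1 stayed lower in Asc-RFP than in Root tdTomato (-0.60, -0.73 to -0.47), and Nrp2 stayed higher over these cells as a whole (0.96, 0.61 to 1.33) and lower in Asc-GFP than in Asc-RFP (-0.59, -0.81 to -0.37). The last ratio was -0.81 (-1.02 to -0.60) over all cells. The values by cluster take all Root cells together, of which 371 of 510 in cluster 2 and 1336 of 2031 in cluster 3 were Root tdTomato cells. For Nrp2 the direction differed by cluster. Within cluster 2 Root was the higher one without overlap, at 10 CPM (7.75 to 12.7) against 6.78 CPM (5.99 to 7.64) in Asc-RFP. Within cluster 3 Root was the lower one, at 1.82 CPM (1.36 to 2.38) against 5.34 CPM (3.90 to 7.15). For Nrp1, Root was above Asc-RFP in both, at 28.2 CPM (24.3 to 32.6) against 21.0 CPM (19.6 to 22.5) in cluster 2 and at 36.8 CPM (34.6 to 39.1) against 28.4 CPM (24.9 to 32.2) in cluster 3. The Nrp2 ratio of Asc-RFP over Root tdTomato was 0.53 (0.24 to 0.82) over all cells and -0.11 in male cells alone, of which Root tdTomato had 225, and it no longer counted at 0.34 under the stricter cell filter, 0.39 without doublet candidates and 0.48 in cells with at least 8000 UMIs.

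Efnb2 (ephrin-B2), an arterial membrane-bound ligand, Ephb4, its receptor known from veins, and the receptors Epha4 and Epha7 were also higher in endothelial-like cells, at 289 CPM (252 to 330), 79.3 CPM (60.4 to 102), 67.2 CPM (49.9 to 88.6) and 78.0 CPM (59.2 to 101). The macrophage-like cells did not share this: Efnb2 was at 5.07 CPM, Ephb4 at 2.17 CPM, and Epha4 and Epha7 at 0.724 CPM each, which is 1 UMI. Sema3c went the other way, at 17.5 CPM (9.31 to 29.9) in endothelial-like and 6.52 CPM (2.98 to 12.4) in macrophage-like cells, below its level in all 5 populations. Sema3d was at 45.7 CPM (31.7 to 63.9) in endothelial-like cells, within the range of the populations, and at 4.34 CPM (1.59 to 9.46) in macrophage-like cells. The endothelial-like level came from few cells: 7 of 84 (8.33%) held its 34 UMIs. In the populations, 35.9% (Root tdTomato) to 58.9% (Arch-GFP) of cells had a Sema3d UMI, before thinning and at greater depth. The endothelial-like and macrophage-like cells had median UMIs of 6542.5 and 5925, fewer than the muscle cells, and free RNA from muscle was not removed from their counts.

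**Figure D3:**
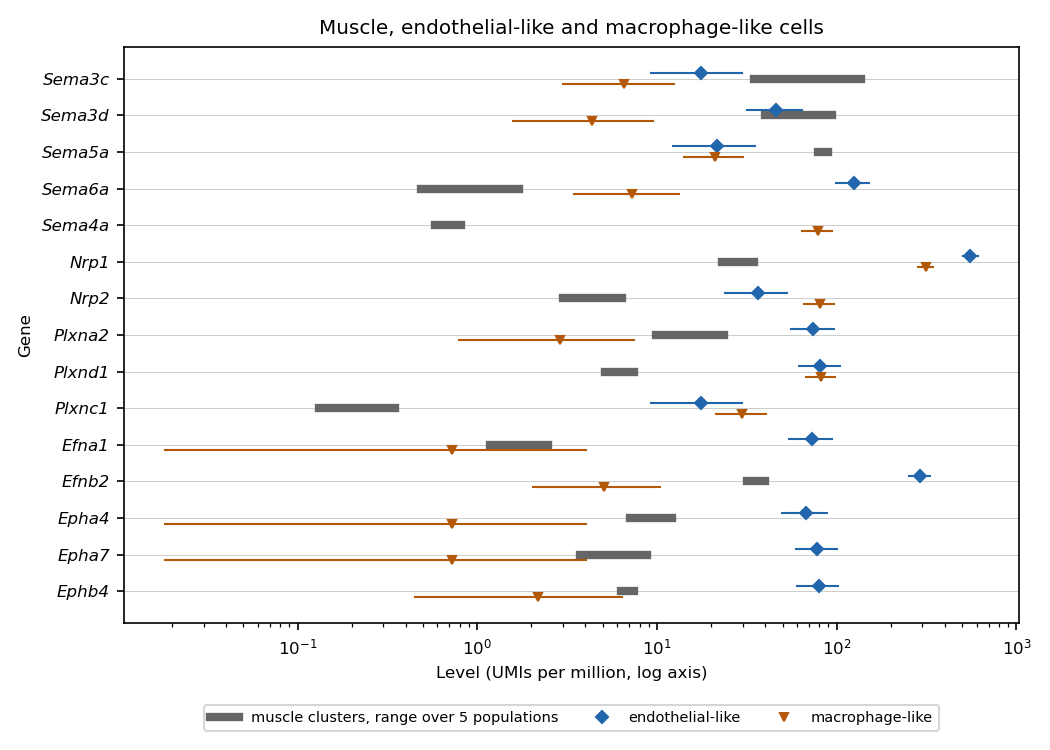
Levels of 15 guidance genes in CPM on a log axis: the grey bar spans the 5 populations in muscle clusters alone, diamonds are endothelial-like and triangles macrophage-like cells of all libraries, with exact 95% Poisson intervals; genes without a UMI in a type have no symbol there. Nrp1 is at 554 and 313 in the 2 other types, while Sema3c, at 17.5 and 6.52, lies below its muscle range.

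No ligand of the ephrin family was called in any comparison. Efna5, a lipid-anchored ephrin and a ligand of Epha3 and Epha7, was at 76.7 CPM (70.6 to 83.1) in Root eGFP cells and 71.3 CPM (68.1 to 74.7) in Root tdTomato cells, at 84.5 CPM (82.6 to 86.5) in Asc-GFP cells and 71.8 CPM (69.6 to 74.1) in Asc-RFP cells, and at 96.5 CPM (94.6 to 98.4) in Arch-GFP cells. Its eGFP cells of the ascending aorta and arch were above the tdTomato cells, but no log2 ratio exceeded 0.23 in size. Efnb2 was at 32.5 to 40.2 CPM and Efnb1, another membrane-bound ephrin, at 9.65 to 12.3 CPM, with no call. The other 5 ephrins were under 5 CPM in all populations.

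Epha3, an EphA receptor tyrosine kinase that binds ephrin-A5 and is known for its part in the endocardial cushions of the developing heart, set the arch apart from all other populations. Epha3 (ENSMUSG00000052504, chr16:63543534-63864175, minus strand) was at 2.74 CPM (1.69 to 4.19) in Root eGFP cells and 2.22 CPM (1.68 to 2.87) in Root tdTomato cells, at 2.68 CPM (2.34 to 3.05) in Asc-GFP cells and 1.24 CPM (0.962 to 1.58) in Asc-RFP cells, and at 22.4 CPM (21.5 to 23.4) in Arch-GFP cells. The log2 ratio of Arch-GFP over Asc-GFP was 3.07 (2.87 to 3.27), from 2266 UMIs against 225. Unlike Sema3c, Epha3 was higher in every arch cluster: it was at 35.8 CPM (32.8 to 38.9) in cluster 5 and at 15.5 to 31.0 CPM in the other 4, against at most 6.04 CPM in an Asc-GFP cluster. Without cluster 5 the ratio was 2.92. Cells with and without a Dlx5 or Dlx6 UMI were both high in Arch-GFP, at 28.4 CPM (26.2 to 30.6) and 20.7 CPM (19.7 to 21.7), and both low in Asc-GFP, at 3.16 CPM (1.68 to 5.40) and 2.65 CPM (2.31 to 3.03). Female Arch-GFP cells were at 32.5 CPM (30.1 to 34.9) and male ones at 18.5 CPM (17.4 to 19.6), while female and male Asc-GFP cells were at 2.75 and 2.64 CPM. After each cell was thinned to 4000 UMIs, leaving out 787 shallower Arch-GFP and 283 Asc-GFP cells, 8.08% (7.46 to 8.73) of Arch-GFP and 1.06% (0.820 to 1.35) of Asc-GFP cells had an Epha3 UMI, against 20.3% and 3.07% before thinning. Of 94 thinned macrophage-like cells, with a median of 5925 UMIs before thinning, none had such a UMI, which allows a share of up to 3.19% (3 cells).

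The 250 bases before the RefSeq start of Epha3 (GRCm38.p6, chr16:63864176-63864425, minus strand) are shown because Epha3 had the largest ratio of the named genes, and capitals mark a match to the GATA letters AGATAA on the opposite strand, 8 bases before the start.
Epha3: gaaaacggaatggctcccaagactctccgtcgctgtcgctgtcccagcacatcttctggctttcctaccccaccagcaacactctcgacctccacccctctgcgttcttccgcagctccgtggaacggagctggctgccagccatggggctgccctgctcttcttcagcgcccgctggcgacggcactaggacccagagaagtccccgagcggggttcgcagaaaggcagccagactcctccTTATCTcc
These letters occur in 9.99% of the promoter windows. No match to the E-box, AP-2, GC box (32.7% of windows), retinoic acid receptor half-site (AGGTCA, 14.0%), T-box (AGGTGTGA, 1.12%), CArG box (1.47%) or TATA box (TATAAA, 12.4%) letters was found in this window.

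Epha7, another EphA receptor for ephrin-A ligands, was higher in the root, as Plxna2 was. Epha7 (ENSMUSG00000028289, chr4:28813131-28967499, plus strand) was at 8.74 CPM (6.77 to 11.1) in Root eGFP cells and 10.5 CPM (9.32 to 11.9) in Root tdTomato cells, at 4.36 CPM (3.93 to 4.83) in Asc-GFP cells and 4.56 CPM (4.01 to 5.17) in Asc-RFP cells, and at 3.77 CPM (3.40 to 4.17) in Arch-GFP cells. The root intervals lay above the other 3, which overlapped their neighbours. From root to ascending aorta the log2 ratio was -1.0 (-1.38 to -0.60) in eGFP and -1.21 (-1.46 to -0.95) in tdTomato cells. Since endothelial-like cells, at 78.0 CPM, were part of Root tdTomato, the value in muscle clusters alone is given too: it was -0.93 (-1.20 to -0.66) there and -1.01 (-1.39 to -0.61) in the eGFP cells, so both calls held. Within cluster 3, Epha7 was at 10.3 CPM (9.13 to 11.5) in Root cells, 4.03 CPM (2.78 to 5.66) in Asc-GFP cells and 4.39 CPM (3.09 to 6.05) in Asc-RFP cells. In the other clusters with 100 or more Root cells the intervals overlapped, with Root at 6.37 CPM (4.59 to 8.61) and Asc-RFP at 4.47 CPM (3.84 to 5.18) in cluster 2, and Root at 6.89 CPM (3.94 to 11.2), Asc-GFP at 4.64 CPM (4.03 to 5.32) and Asc-RFP at 6.91 CPM (3.87 to 11.4) in cluster 1.
A second RefSeq start of Epha7 has a window at chr4:28812895-28813144, which overlaps an exon and is not shown. The 250 bases before the other RefSeq start of Epha7 (GRCm38.p6, chr4:28812881-28813130, plus strand) are shown as those of the receptor lower beyond the root. The GC box match of the shown window is in capitals on the opposite strand, 107 bases before the start.
Epha7: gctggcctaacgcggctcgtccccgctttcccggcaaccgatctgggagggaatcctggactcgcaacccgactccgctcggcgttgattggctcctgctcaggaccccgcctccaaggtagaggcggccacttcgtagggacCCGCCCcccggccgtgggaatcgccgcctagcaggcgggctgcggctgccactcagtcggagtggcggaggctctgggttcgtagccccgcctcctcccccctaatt
Of this window 69.2% of bases are G or C, against 62.8% for Epha3, 46.8% for Sema3d, 78.4% for Sema3c and 62.8% for Plxna2, and the median over all windows is 52.4%. The 5 genes thus spanned both sides of the median.

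The other Eph receptors that reached 5 CPM had smaller ratios. Of those under it, Ephb1 was at 0.761 CPM in Asc-GFP cells and 2.02 CPM in those of Arch-GFP (1.41, 1.0 to 1.84). Ephb2 was at 3.09 CPM in Asc-RFP and 1.52 CPM in Root tdTomato (1.03, 0.52 to 1.57). Epha2 had larger ratios in the same comparisons, 1.56 (0.86 to 2.32) in Arch-GFP over Asc-GFP and -1.54 (-2.50 to -0.61) in Asc-RFP over Root tdTomato. It was at 0.262 to 0.972 CPM in these populations. All were named after their values were seen. Ephb6, an Eph receptor without kinase activity, was at 7.17 CPM (5.40 to 9.33) in Root eGFP cells and 8.90 CPM (7.79 to 10.1) in Root tdTomato cells, at 8.16 CPM (7.56 to 8.79) in Asc-GFP cells and 5.49 CPM (4.88 to 6.15) in Asc-RFP cells, and at 7.93 CPM (7.39 to 8.50) in Arch-GFP cells, so Asc-RFP was the low population. Its ratio was 0.57 (0.37 to 0.77) in Asc-GFP over Asc-RFP and -0.70 (-0.95 to -0.44) in Asc-RFP over Root tdTomato; the former was 0.47 in female cells alone and no longer counted. Ephb3, a receptor for ephrin-B ligands, was at 3.57 CPM (3.17 to 3.99) in Asc-GFP and 5.23 CPM (4.63 to 5.87) in Asc-RFP, a ratio of -0.55 (-0.79 to -0.31), and at 3.78 to 4.36 CPM in the other 3. It no longer counted in male cells (-0.39) or under the stricter cell filter (-0.36). Epha4, which binds ephrins of both classes, was highest in Root tdTomato at 12.6 CPM (11.2 to 14.0), with 7.82 CPM (5.97 to 10.1) in Root eGFP, 9.14 CPM (8.35 to 9.98) in Asc-RFP, 7.09 CPM (6.53 to 7.68) in Asc-GFP and 7.48 CPM (6.95 to 8.03) in Arch-GFP. Its ratio of Root eGFP over Root tdTomato was -0.68 (-1.11 to -0.28), and -0.63 (-1.05 to -0.22) in muscle clusters alone. Epha1, an EphA receptor, was lowest in Root eGFP at 5.35 CPM (3.84 to 7.25) and at 7.54 to 8.85 CPM elsewhere, with a ratio of 0.73 (0.27 to 1.22) in Asc-GFP over Root eGFP.

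Counted together, a gene was measured at 5 CPM or more in either population and called where its log2 ratio was 0.5 or more in size with an interval that leaves out 0. In Asc-GFP against Asc-RFP, 2 of 23 measured genes were higher (Ephb6 and Sema3c) and 3 lower (Ephb3, Nrp2 and Sema6c), where 1.66% of all 9711 measured features were higher and 1.93% lower. In Root eGFP against Root tdTomato, 0 of 23 were higher and 4 lower (Epha4, Nrp1, Nrp2 and Plxna4), against 1.61% and 3.64% of 9855 features. In Arch-GFP against Asc-GFP, 2 of 21 were higher (Epha3 and Sema3c) and 0 lower, against 2.15% and 0.729% of 9733. Between colours, Nrp2 was the gene called in both segments, though not in the root once muscle clusters alone were used. In Asc-GFP against Root eGFP, 4 of 22 were higher (Epha1, Plxna4, Sema3c and Sema3d) and 2 lower (Epha7 and Plxna2), against 3.97% and 3.81% of 9745. In Asc-RFP against Root tdTomato, 4 of 24 were higher (Nrp2, Sema3c, Sema3d and Sema4c) and 5 lower (Epha7, Ephb6, Nrp1, Plxna2 and Plxnd1), against 2.93% and 5.25% of 9888. The median log2 ratio of the measured members was -0.007, -0.178, 0.077, 0.012 and -0.027 in these 5 comparisons, beside 0.021, 0.009, 0.033, 0.012 and -0.006 for all features, so the set as a whole did not move 1 way. Sema3c, Sema3d, Plxna2 and Epha7 were called in the same direction from root to ascending aorta in both colours. Comparisons that share a population are not independent of each other.

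**Figure D4:**
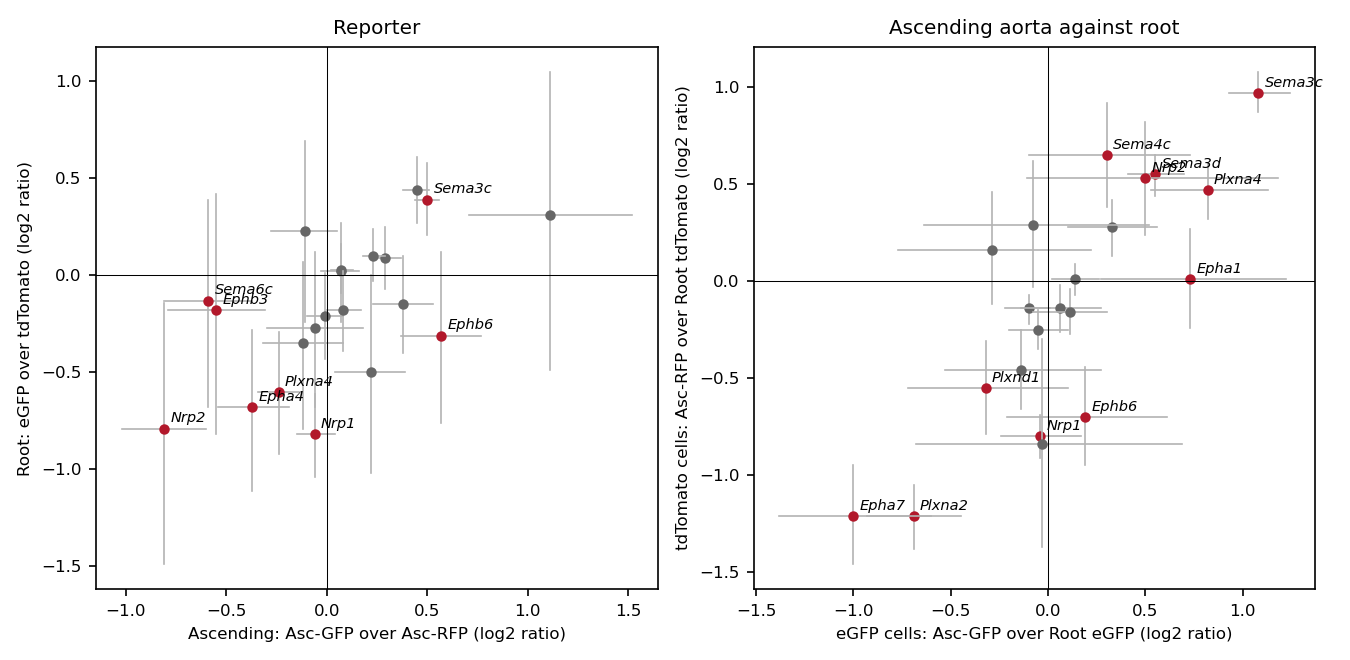
Log2 ratios of 21 guidance genes with exact 95% intervals (counting error only), 1 library a group: left, eGFP over tdTomato cells in the ascending aorta (horizontal) and in the root (vertical); right, ascending aorta over root in eGFP cells (horizontal) and tdTomato cells (vertical). Red, named points are called in at least 1 of the 2 comparisons; on the right Sema3c lies at 1.08 and 0.97, Plxna2 at -0.69 and -1.21 and Epha7 at -1.0 and -1.21.

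Since the sexes were unevenly spread, the leading genes were also read in female and male cells apart. Sema3c in female cells was at 35.0 CPM in Root tdTomato, 48.9 CPM in Root eGFP, 76.8 CPM in Asc-RFP, 101 CPM in Asc-GFP cells and 146 CPM in Arch-GFP. In male cells it was at 23.3, 10.1, 52.5, 83.1 and 133 CPM in that order. The order by segment was the same in both sexes, and Sema3c was lower in the male cells of each population. Root eGFP was the exception by colour: its 64 male cells held 8 UMIs of Sema3c and 8 of Sema3d, 10.1 CPM (4.34 to 19.8) for each gene, against 48.9 CPM (43.7 to 54.6) and 59.2 CPM (53.5 to 65.5) in its 477 female cells. Plxna2 was at 20.2 CPM (16.9 to 23.9) in female and 33.9 CPM (22.4 to 49.4) in male Root eGFP cells, and Epha7 at 8.31 CPM (6.24 to 10.8) and 12.6 CPM (6.03 to 23.1). In male cells alone, Root eGFP over Root tdTomato was -1.21 for Sema3c and -1.43 for Sema3d, the opposite of female cells.

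**Figure D5:**
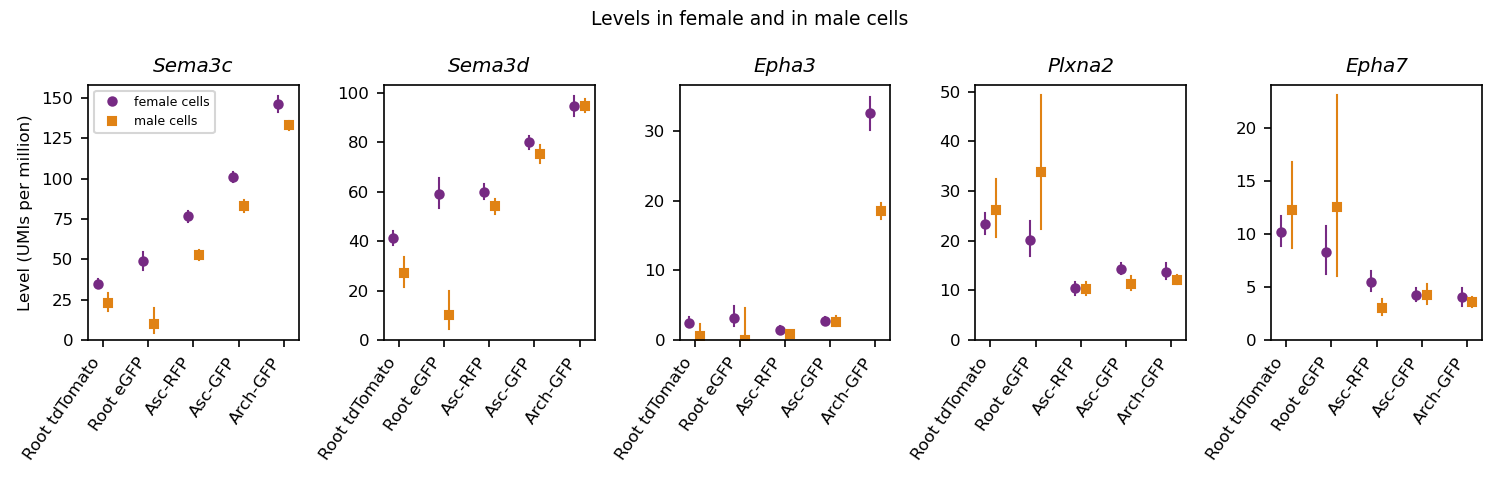
Levels of Sema3c, Sema3d, Epha3, Plxna2 and Epha7 in CPM in female (circles) and male (squares) cells of each population, with exact 95% Poisson intervals. Sema3c is higher toward the arch in both sexes, and the 64 male Root eGFP cells stand low for Sema3c and Sema3d, at 10.1 each.

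The share of cells with a Sema3c UMI followed its level. After thinning to 4000 UMIs a cell, it was 12.0% (10.5 to 13.6) in Root tdTomato, 17.0% (14.0 to 20.3) in Root eGFP, 22.1% (20.8 to 23.5) in Asc-RFP, 28.8% (27.7 to 30) in Asc-GFP and 37.5% (36.4 to 38.7) in Arch-GFP, against 30%, 37.2%, 48.9%, 61.6% and 66.1% before thinning. Cells too shallow to be thinned numbered 35, 5, 415, 283 and 787. In macrophage-like cells, 1 of 94 thinned cells (1.06%, 0.0269 to 5.79) had such a UMI, against 7 of 165 cells (4.24%) before thinning.

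The 24 low genes hold several that were higher outside muscle. Sema6a, a membrane-bound ligand of Plxna2 and Plxna4, was at 124 CPM in endothelial-like cells and at 0.523 to 3.15 CPM in the 5 populations. Sema4a, a semaphorin of immune cells, was at 78.2 CPM in macrophage-like cells and at 0.594 to 2.80 CPM in the populations. Efna1, an ephrin-A ligand, was at 72.6 CPM in endothelial-like cells and at 1.91 to 2.80 CPM in the populations. Plxnc1, the receptor of Sema7a, was at 29.7 CPM in macrophage-like cells, 17.5 CPM in endothelial-like cells and 0.130 to 1.13 CPM in the populations. All 4 were highest in Root tdTomato among the 5 populations, which is also the population with the highest summed macrophage and endothelial markers.

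The other guidance lists, chosen with earlier results of these data known, are given by their counts and by the members with large ratios. Of 32 semaphorin partners and effectors, 19 or 20 were measured in each comparison, none was called between colours or between arch and ascending aorta, and from root to ascending aorta 1 was higher and 2 lower in the eGFP cells and 0 higher and 3 lower in the tdTomato cells, beside 3.97% and 3.81% of all features in the former and 2.93% and 5.25% in the latter. Farp1, a guanine exchange factor of plexin signalling, was at 8.47 CPM in Root eGFP, 6.49 CPM in Root tdTomato, 0.880 CPM in Asc-GFP cells and 2.15 CPM in Asc-RFP, with ratios of -3.27 (-3.77 to -2.76) and -1.59 (-1.95 to -1.24). It was thus lower beyond the root, as Plxna2 was. Of 28 Eph partners and effectors, 20 to 23 were measured, with 0 called between colours in the ascending aorta and between arch and ascending aorta, 2 higher and 1 lower between colours in the root, 2 higher and 2 lower from Root eGFP to Asc-GFP, and 2 higher and 1 lower from Root tdTomato to Asc-RFP. Tiam1, a Rac exchange factor downstream of Eph receptors, was at 7.62 CPM in Root tdTomato and at 1.07 to 3.52 CPM in the other populations. Among 29 other guidance ligands and receptors, 11 or 12 were measured, with 1 or 2 called higher in each comparison and 0 to 2 lower. Over all features these shares were 1.61% to 3.97% higher and 0.729% to 5.25% lower, and with so few measured genes nothing is read from the counts of the lists. The median log2 ratio of the 3 lists lay between -0.245 and 0.178. The netrin-G1 gene Ntng1, a lipid-anchored cell-surface protein, followed the reporter: it was at 8.39 CPM in Asc-GFP cells and 1.43 CPM in Asc-RFP (2.56, 2.22 to 2.92) and at 7.17 CPM in Root eGFP and 0.894 CPM in Root tdTomato (3.00, 2.28 to 3.77). No semaphorin, plexin, ephrin or Eph gene measured at 5 CPM had a ratio of that size between colours. Ntn1, a secreted netrin, was higher beyond the root, at 0.64 (0.46 to 0.82) in eGFP and 0.81 (0.70 to 0.92) in tdTomato cells, while its receptor Unc5b was lower, at -1.04 (-1.31 to -0.76) and -1.65 (-1.86 to -1.45).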

How the data were processed

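Single-cell RNA was counted in 4 libraries, 1 per group, from Wnt1-Cre2.mT/mG mice; replicates were not analysed here. The deposited matrices hold UMI counts per gene and barcode, whole numbers made with Cell Ranger 7.0.0, per the file headers. Cells were sorted for ITGA8 and libraries made with the 10x 3′ v3.1 kit, per the labels' protocols, and mm10 was the genome and Seurat 4.3 a tool of the authors, per the submitters' processing notes. The annotation release and the strand setting are not given in the sources used here.

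A barcode was kept as a cell from 1000 detected genes upward and up to 10% of UMIs from mitochondrial genes. This left 8031 of 10506 barcodes in Arch-GFP, 6408 of 8845 in Asc-GFP, 4030 of 6539 in Asc-RFP and 2960 of 4040 in Root. The labels state 4710, 4050, 2450 and 1841 cells after the submitters' own filter. UMIs were summed over cells and scaled to 1000000 (CPM). Levels have exact Poisson, ratios exact conditional binomial and shares exact binomial intervals, all at 95%. A share of 0 is given with the limit of 3 cells. A gene counted at 5 CPM in either population, with a log2 ratio of size 0.5 or more and an interval without 0. Genes were named at 20 CPM in any population, or at 5 CPM with a call. Clusters came from scanpy 1.11.5 and igraph 0.11.9 (2000 variable genes, 30 components, 15 neighbours, resolution 0.5, seed 1). Muscle clusters leave out 3 clusters: low UMIs, endothelial-like and macrophage-like. The last missed the planned limit on smooth muscle markers of -1.5, so that -1 was used, a change made after the clusters were seen. Sexes were read from Xist and Y-linked UMIs. No doublet caller was run, and an alternative left out candidates. Free RNA was not removed. Positions are from GENCODE M21 on mm10, matched by identifier for all 53 genes and 32158 features, and promoters from RefSeq on GRCm38.p6, with an entry for 47 of the 53. Scaling by edgeR 4.0.16 TMM factors and by DESeq2 1.42.0 size factors served as alternatives. The interval script was tested on simulated data. The members, lists and comparisons were chosen with earlier results of these data known.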

Additional observations from a re-analysis of the deposited data

Results flagged for a closer look

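Epha1, an EphA receptor, differed in direction between segments when the reporter colours were compared. In the ascending aorta its log2 ratio of eGFP over tdTomato cells was 0.22 (0.04 to 0.39), and in the root it was -0.50 (-1.02 to -0.00), from 41 UMIs in Root eGFP and 194 in Root tdTomato. Each colour and segment is 1 population of 1 library, so the difference between these 2 ratios was not tested.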

How the results depend on the processing

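No paired analysis was possible because each group is 1 library and the labels give no replicate numbers. Of 1027 log2 ratios of named genes under alternatives, 909 moved within their counting interval, 117 moved beyond it and 1 called ratio reversed: Nrp2 in Asc-RFP over Root tdTomato, at -0.11 in male cells. Ratios that were not called changed sign in 72 cases, 7 of them with a main interval without 0: in male cells Sema3c (0.39 to -1.21) and Sema3d (0.44 to -1.43) in Root eGFP over Root tdTomato and Epha3 (-0.84 to 0.39) in Asc-RFP over Root tdTomato, and smaller ones of Plxna4, Plxnb2, Efna5 and Efnb2. The 2 scalings shifted ratios by at most 0.032. Counts of called genes are written higher/lower, with the main ones at 2/3 for Asc-GFP over Asc-RFP, 0/4 for Root eGFP over Root tdTomato, 2/0 for Arch-GFP over Asc-GFP, 4/2 for Asc-GFP over Root eGFP and 4/5 for Asc-RFP over Root tdTomato. With no filter on level they were 4/7, 0/9, 9/0, 7/4 and 10/13, and at 20 CPM 1/0, 0/1, 2/0, 3/1 and 2/2. At a log2 ratio of 1 they were 0/0, 0/0, 1/0, 1/1 and 0/2. For Asc-GFP over Asc-RFP, higher genes numbered 1 in muscle clusters, 1 with TMM scaling, 1 with median-of-ratios scaling, 1 as a mean over cells and 0 in female cells. For Root eGFP over Root tdTomato, higher genes numbered 1 in female cells, 1 in male cells and 2 under the stricter cell filter. For Arch-GFP over Asc-GFP, 1 was higher without cluster 5. For Asc-GFP over Root eGFP, lower genes numbered 1 in female and 5 in male cells, and for Asc-RFP over Root tdTomato 10 in male cells. Fewer cells enter the settings by sex, with 64 male cells in Root eGFP; the cause of the other changes was not tested. Root eGFP has the fewest UMIs of the 5 populations, 7670195, and there counting limits the ratios most.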
